A study of Rattus norvegicus with 8 samples.

Results

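The m6A regions of 5 genes that write or read N6-methyladenosine (m6A) were examined in primary rat vascular smooth muscle cells (VSMCs), which form the muscular layer of arteries. The genes were Mettl3, Zc3h13, Rbm15, Rbm15b and Ythdf2, and every region whose gene name is exactly one of these was taken. The genes had themselves been chosen by the authors' fold and p for their regions, so those values are given as a description with no test. This gave 9 of the 1967 regions in the authors' deposited table, 3 in Mettl3, 3 in Zc3h13 and 1 in each of the others. The study compared cells overexpressing Mettl3 with cells carrying a vector, in 4 groups of 2 libraries, an m6A immunoprecipitation (IP) and an input for each condition. The labels do not say which form of Mettl3 was expressed, from which promoter or vector, or whether the paired libraries within a group are separate isolations of cells. The table lists regions with a fold of at least 4 and an unadjusted p under 0.05 between the conditions, and it holds no value per library, so no spread between replicates can be given. No source used here says whether input entered the fold; a difference in m6A and a difference in the amount of RNA cannot be told apart.

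The m6A mark is written on nascent messenger RNA by a nuclear complex. METTL3 is its catalytic subunit, ZC3H13 holds the complex in the nucleus, and the RNA-binding proteins RBM15 and RBM15B bring it to its target transcripts. YTH-domain proteins read the mark, and YTHDF2 is the cytoplasmic reader that recruits the CCR4-NOT deadenylase and promotes decay of marked RNA. These roles are known mainly from human and mouse cells. In VSMCs, m6A has been studied in the context of the switch from a contractile to a proliferative state.

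At an adjusted p under 0.05, the threshold used throughout, 6 of the 9 regions passed in the authors' deposited table, 4 of them lower and 2 higher in overexpressing cells. Of all listed regions 14.0% passed, 13.0% of the lower and 20.2% of the higher ones, and since the genes were chosen for their regions nothing is read from the members' share. The passing regions lay in Mettl3 (1 lower and 2 higher), Zc3h13, Rbm15b and Ythdf2 (1 lower each). The Rbm15 region and the other 2 of Zc3h13 did not pass. The members closest to the threshold on the passing side were Ythdf2, Rbm15b and Zc3h13, for which the authors' deposited table has adjusted p from 0.036 to 0.0377. Over all genes, the last listed regions inside the threshold (Btbd16, Tgif2-ps1 and Sil1, all higher) stand at 0.0489 and the first outside it (Arhgef12, higher) at 0.0503 by the authors' deposited table.

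**Figure D1:**
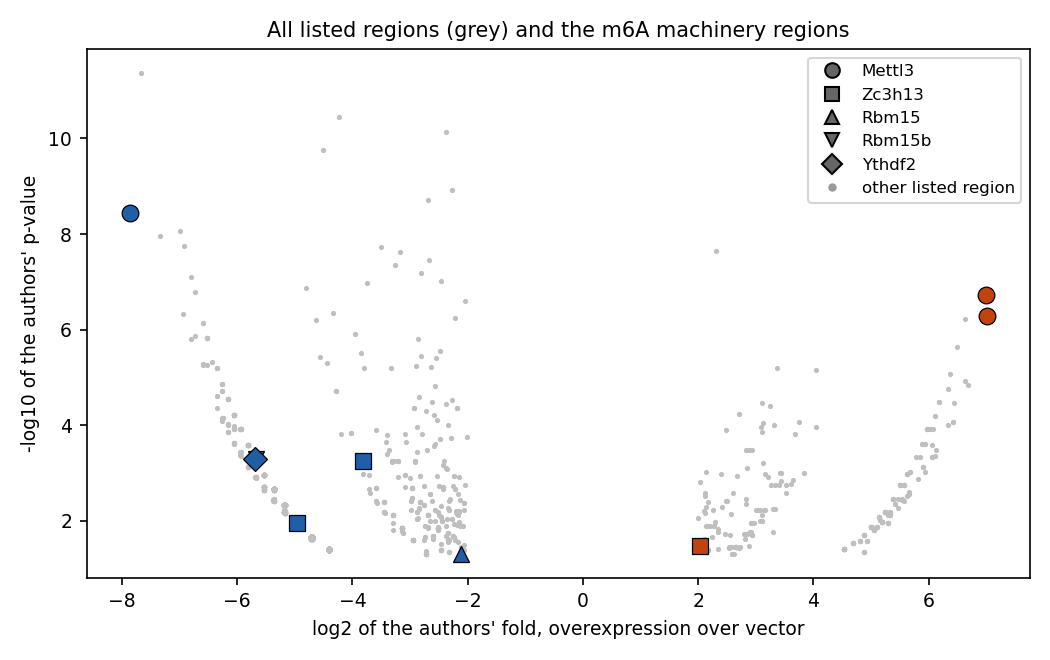
The log2 of the authors' fold (x axis) is plotted against the -log10 of the authors' p-value (y axis) for all 1967 listed regions in grey, with the 9 member regions as large symbols, blue where lower and orange where higher in Mettl3-overexpressing cells. Mettl3 holds the largest fold on both sides, Ythdf2 and Rbm15b coincide near a log2 value of -5.68, and Rbm15 and the higher Zc3h13 region lie near the smallest listed folds.

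The adjusted p-values imply a number of tests that they were adjusted over. With 104053 tests, 84.1% of the 220 distinct adjusted p-values gave a whole-number rank (relative tolerance 1e-06). No smaller number down to 1000 gave as many, and none up to 200000 gave more. Larger multiples of 104053, which would give at least as many, lie above that range and were not tried. On this reading, at least 1611 tests (1.55%) passed, of which the 275 passing regions of the authors' deposited table are 17.1%. The highest number in the name of a listed region was 15480, well below 104053. No source used here says what the implied tests were, so they are not taken as named regions. Among the 104053 implied tests the Mettl3 regions ranked at most 105th (lower) and 239th and 203rd (higher) by p. Rbm15b and Ythdf2, which share an adjusted p, ranked at most 1492nd, and the passing Zc3h13 region ranked at most 1511th. The Rbm15 region ranked at most 17310th, near rank 17361, the last that any listed region holds.

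The size of a fold in these tables also shows the values behind it. A fold with a single decimal is what a mean of 0 in one condition gives when a constant of 0.1 is added to both means, each rounded to 2 decimals. Among 1415 lower regions of this form, the vector means fell on whole multiples of 0.503, read as the weight of 1 read over the 2 vector libraries, and higher regions gave 0.123 for an overexpression read. A vector read thus weighed 4.09 times an overexpression read. The vector means also carried a finer step, as they would if a read of one vector library weighed 1.20 to 1.43% more than a read of the other. The mean therefore shows, within limits, how a region's reads were divided between the vector libraries. Reads and their divisions are inferences from the folds and are called implied; the files do not say which library is which, and each count carries counting error. Means in the lower condition were tried only up to 40, so the numbers of pairs and the largest pairs below are limits of that search. Within it, larger pairs of means gave the same fold for every member region but the first higher one of Mettl3. The values below are those of the smallest pair unless another is named, and for the 1415 single-decimal folds read here, 82.7% of the lower ones, that pair holds a 0. The library weights were fitted so that each implied mean allowed at least as many divisions as it had distinct p-values, so divisions and p-values are not independent.

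Mettl3, the overexpressed gene, had the most extreme folds of both directions. Positions are those of the deposited tables, in a rat genome build that no source used here names. Its 2 higher regions (transcript NM_001024794) lay on chromosome 15 from 32523365 to 32523582 (217 bp) and from 32531162 to 32531328 (166 bp). In the 217 bp region, the only pair of means found for the fold was 28.68 in vector and 3707.63 in overexpressing cells, or 57 vector reads against 30130 to 30143 overexpression reads. In the 166 bp region the search found 2 pairs. The smaller was 14.11 against 1814.38, or 28 vector reads against 14745 to 14751, and the larger was 28.32 against 3628.86, or 56 vector reads against 29490 to 29502. The authors' deposited table gives folds of 128.8 (adjusted p = 0.000227) and 127.7 (adjusted p = 9.73e-05). Both regions thus have nearly the same fold. With the smaller pair the 217 bp region had 2.04 times the mean of the other in overexpressing cells and 2.03 times in vector cells, and with the larger pair 1.02 and 1.01 times. The ratio of reads alone, without the weights, was 529 and 527. Vector cells had reads at both sites. In the 217 bp region 26 to 28 of 57 were in the heavier-weighted library. In the 166 bp region 16 or 17 of 28 were with the smaller pair, and 46 to 50 of 56 with the larger, so the division there is not settled. Mettl3 was itself overexpressed, and no value of these tables separates its RNA amount from its m6A.

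The lower Mettl3 region was of another kind. It was 21 bp long, lay on chromosome 15 from 32520499 to 32520520, and was shorter than the fragments that the protocol aimed for. Its vector mean was 23.26, or 46 reads, against an implied 0 in overexpressing cells. At the weights of the folds, a region with the same mean in overexpressing cells would have held 189 overexpression reads. The fold of 233.6 (adjusted p = 3.50e-06) is the largest of the authors' deposited table, and its size depends on the constant added to 0. With 3 overexpression reads in place of 0 it was 63.0, and the ratio of reads alone was 15.3. The next larger pair for this fold was 162 vector reads against 2 overexpression reads. With the smallest pair, 38 to 41 of the 46 vector reads came from the heavier-weighted vector library and 5 to 8 from the other. That put 82.6 to 89.1% of the support in 1 library. With the next larger pair, 96 to 103 of the 162 vector reads were in the heavier-weighted library, so the division is not settled. The Slc16a14 region, next in vector reads against an implied 0, had 40 reads, of which 20 to 22 were in that library, and a p of 4.33e-12, where the Mettl3 region had 3.56e-09 in the authors' deposited table. With these smallest pairs the lower Mettl3 region had more reads than the Slc16a14 region, and its p was larger. Of the 1710 lower regions, 93 were no longer than 21 bp.

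**Figure D2:**
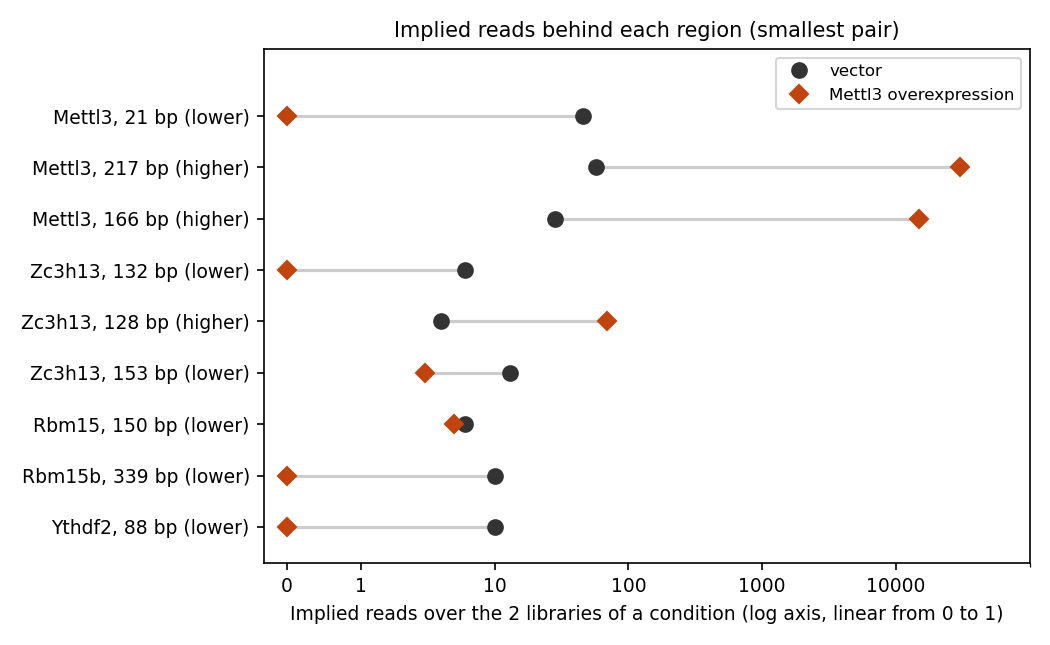
Implied reads over the 2 libraries of a condition (x axis, log scale that is linear between 0 and 1) are shown for each of the 9 member regions, with vector as dark circles and Mettl3 overexpression as orange diamonds; where several pairs of counts are possible the smallest is drawn. The 2 higher Mettl3 regions hold at least 14745 overexpression reads each, while the 6 lower regions, as drawn, hold 0 to 5 overexpression reads against 6 to 46 vector reads.

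The 3 Mettl3 regions spanned 10829 bp, with the lower region at the end of smallest coordinate. A gap of 2845 bp separated it from the first higher region, and 7580 bp separated the higher regions. Region names are numbered in genome order, and the number between each neighbouring pair of Mettl3 regions was not listed, so at least 1 more region was named in each gap. The strand of Mettl3 was not used here, so which end of the transcript the lower region lies toward is not stated.

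Zc3h13, whose protein anchors the writer complex in the nucleus, also had regions in both directions, and 1 of them passed. All 3 were assigned to transcript NM_001170471 on chromosome 15. Zc3h13 is on the plus strand in GRCr8. The 11 listed genes of its neighbourhood, Zc3h13 included, are in the same order there as in the deposited positions. The regions can therefore be ordered from 5′ to 3′. The first, from 61051548 to 61051680 (132 bp), was listed as lower, from 6 vector reads against an implied 0. The authors' deposited table gives it a fold of 31.1 (adjusted p = 0.159). Of the 6 reads 1 or 2 came from the heavier-weighted vector library and 4 or 5 from the other. The second, from 61103421 to 61103549 (128 bp), was listed as higher; in the authors' deposited table the fold is 4.09 (adjusted p = 0.248). The smallest pair for that fold was 4 vector reads against 69 from overexpressing cells, which makes 17.2 by reads alone. The largest of the 8 pairs found by the search was 79 against 1326. By the library weights the 4 reads all lay in the same library, although the weights were fitted to regions taken to have reads in both. The most 3′ region, from 61107932 to 61108085 (153 bp), passed as lower; in the authors' deposited table the fold is 14.1 (adjusted p = 0.0377). Its smallest pair was 13 vector reads against 3 overexpression reads, and 7 or 8 of the 13 came from the heavier-weighted library. The search found another 14 pairs, from 158 against 45 up to 1123 against 324 reads. It is the only lower member region that passed whose fold cannot come from a mean of 0.

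The Zc3h13 regions spanned 56537 bp, 5.22 times the span in Mettl3. The first was 51741 bp upstream of the second with 1 unlisted number between them, and the last pair, of opposite direction, were 4383 bp apart with no number between them. The 2 outer regions were thus lower, and the higher one lay between them, close to the 3′ one. In Mettl3 the order was lower, higher, higher by coordinate. Of the 1726 gene names in the authors' deposited table, 192 had more than 1 region and 45 had regions in both directions (2.61% of all and 23.4% of those with more than 1). Mettl3 and Zc3h13 are among these 45. In 44 of them the regions share a chromosome, and the smallest gap between opposite regions had a median of 20276 bp; it was smaller than in Mettl3 in 7 genes and smaller than in Zc3h13 in 9. Regions of both directions passed in 3 of the 44 genes, Mettl3, Atad2 and RT1-M6-2. Reads of RT1-M6-2 are uncertain, since it belongs to a family of similar genes.

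**Figure D3:**
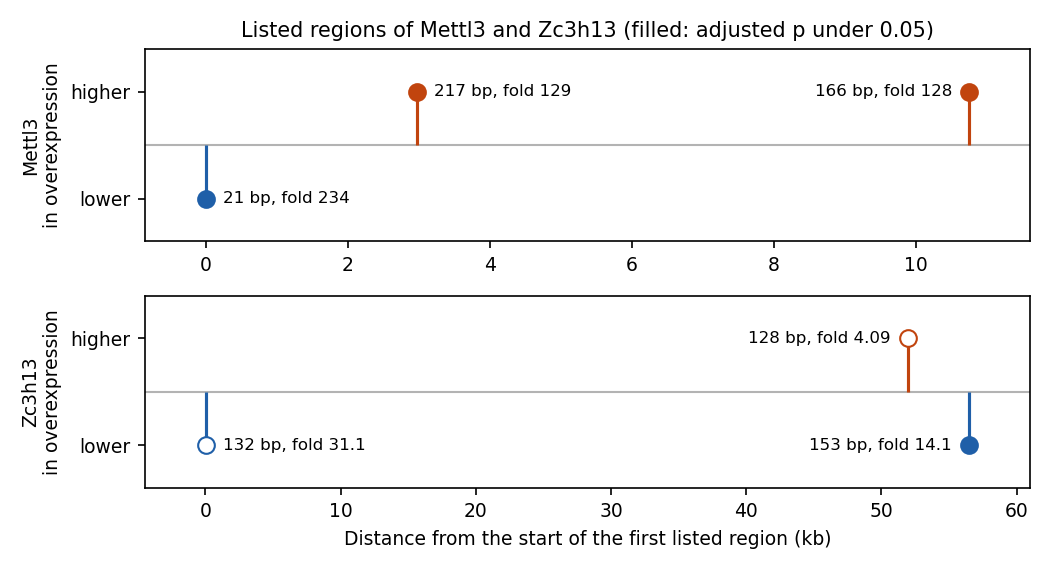
Each listed region of Mettl3 (top) and Zc3h13 (bottom) is placed by its distance in kb from the start of the gene's first listed region (x axis), above the line where higher and below it where lower in overexpressing cells; filled circles passed at an adjusted p under 0.05. Opposite regions lie 2845 bp apart in Mettl3 and 4383 bp apart in Zc3h13, and the first Zc3h13 region stands more than 50 kb from the others.

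Rbm15 and Rbm15b encode paralogous RNA-binding adaptors of the writer complex, and each had 1 lower region, of which that of Rbm15b passed. The Rbm15b region (transcript ENSRNOT00000018995) lay on chromosome 8 from 114978141 to 114978480. At 339 bp it was the longest of the 9, and 235 of the 1710 lower regions were at least as long. It rested on 10 vector reads, 5 or 6 from one library and 4 or 5 from the other, against an implied 0. In the authors' deposited table the fold is 51.3 (adjusted p = 0.036). With 3 overexpression reads in place of 0 the fold was 13.6, and the ratio of reads alone was 3.33. The Rbm15 region (transcript ENSRNOT00000070994) lay on chromosome 2 from 229554810 to 229554960 (150 bp) and did not pass. In the authors' deposited table it has a fold of 4.33 (adjusted p = 0.292). The unadjusted p of 0.0485 was the largest of all lower regions in the authors' deposited table and was shared by 8 regions of the same fold. The smallest pair of reads was 6 in vector against 5 in overexpressing cells, or 1.20 by reads alone. In all the search found 201 pairs, up to 345 vector reads, and among them the ratio of reads alone ran from 1.06 to 1.20. The fold of 4.33 also holds the weight of 4.09 given to a vector read. Since the depth of the libraries is unknown, neither the fold nor the ratio of reads alone is taken as the truer value. Whether the Rbm15 and Rbm15b regions differ in response was not tested, since no value per library was used.

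Ythdf2, the reader, had 1 lower region that passed. It lay on chromosome 5 from 154055172 to 154055260 (88 bp; transcript NM_001047099), and 10 vector reads stood against an implied 0. Of these 10, 6 came from the heavier-weighted vector library and 4 from the other. The authors' deposited table lists a fold of 51.4 (adjusted p = 0.036). With 3 overexpression reads in place of 0 the fold was 13.7. With these counts the folds of Ythdf2 and Rbm15b, 51.4 and 51.3, differ only in how the same number of reads was divided between the vector libraries. Both regions shared their implied counts with many others: 38 lower regions had 10 reads divided 4 to 6 or more evenly, and all had p = 0.000517 by the authors' deposited table. The 9 regions with 10 reads divided less evenly had p from 0.00121 to 0.00128. With 10 reads the p was larger where the implied division was less even, and Ythdf2 and Rbm15b were among the evenly divided ones. The weights behind the divisions were fitted with the numbers of distinct p-values, so this order is no independent result. This order did not hold at every count. With 4 reads the 74 regions with 3 in the heavier-weighted library had the smallest p, 0.0396, beside 0.0402 and 0.0403.

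**Figure D4:**
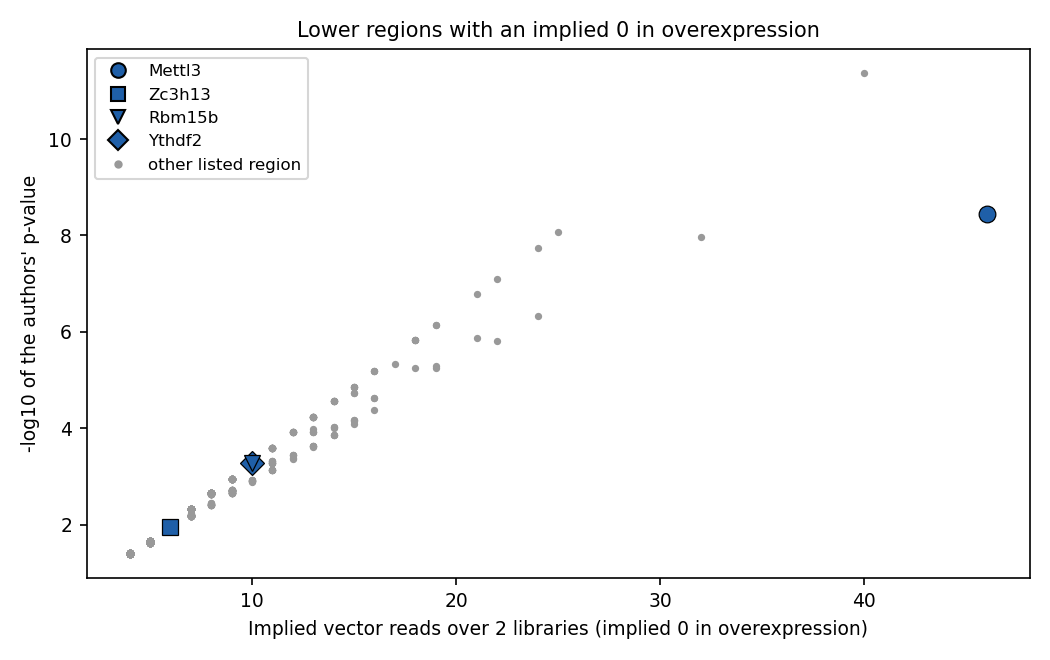
For the 1415 lower regions with an implied 0 in overexpressing cells, the implied vector reads over 2 libraries (x axis) are plotted against the -log10 of the authors' p-value (y axis), with members as large blue symbols. Regions with the same number of reads fall on more than 1 p-value at most counts; Ythdf2 and Rbm15b at 10 reads lie on the upper band, and Mettl3 at 46 reads lies below Slc16a14 at 40.

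The regions of the 4 genes other than Mettl3 had lengths that ran from 88 to 339 bp with a median of 141 bp, beside 131 bp over all 1967 regions, and the smallest vector counts possible for them ran from 4 to 13 reads. Of these 6 regions, 5 were lower (83.3%), beside 86.9% of all listed regions. Of the 5, 3 passed, beside 13.0% of all listed lower regions. The genes were chosen for their regions, so nothing is read from these shares. The median fold of the 6 was 22.6, beside 26.2 over all regions, in the authors' deposited table. In the functional annotation of the tables, 3 of the 5 member genes (Mettl3, Zc3h13 and Rbm15) carried the term nuclear speck, which 1.14% of the 1404 annotated genes carried, and Ythdf2 carried the term for processing bodies. Zc3h13, Rbm15, Rbm15b and Ythdf2 carried poly(A) RNA binding, as 9.01% of 1310 annotated genes did. None of the 5 carried a pathway term, which 540 of the listed genes carried, with 1726 gene names listed in all. The genes were grouped as writers and readers of m6A, so terms of this kind follow from that grouping. Nothing is read from the shares that carried them.

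A list of 33 genes of the m6A machinery, members included, was also looked up. Of these 7 had a region, and their 11 regions were 8 lower (5 passing, beside 13.0% of all lower regions) and 3 higher (2 passing, beside 20.2% of all higher ones). Of the 11 regions 9 are the members', chosen for their values, and nothing is read from these counts. In the writer complex, 4 of 8 genes had a region, all members described above, and Mettl14, Wtap, Virma and Cbll1 had none. Neither eraser (Fto, Alkbh5) had a region, nor did 5 other RNA methyltransferase genes, the other 4 YTH readers, Ythdc1 of the series title among them, or 10 further readers. Among 3 decay partners of YTHDF2, 2 had a lower region. Cnot1, the scaffold of the CCR4-NOT complex that YTHDF2 recruits, had a lower region of 122 bp on chromosome 19 from 9746561 to 9746683 that passed. It rested on 11 vector reads against an implied 0, of which 8 or 9 came from one library. Its fold in the authors' deposited table is 56.2 (adjusted p = 0.0488). With 3 overexpression reads in place of 0 the Cnot1 fold was 14.96. Upf1, the helicase of nonsense-mediated decay, had a lower region of 140 bp on chromosome 16 from 20685717 to 20685857 that did not pass. Its fold in the authors' deposited table is 4.20 (adjusted p = 0.252), and the smallest pair was 16 vector reads against 15 overexpression reads. A gene with no listed region may still carry m6A, or may have changed by less than the listing required.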

How the data were processed

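In MeRIP-seq, fragmented RNA is pulled down with an anti-m6A antibody and sequenced beside an input. Per the submitters' processing notes reads were trimmed with Trimmomatic 0.36; the aligner, genome build, test and use of input are named by no source used here. Per the file headers, the authors deposited for each region a fold, a ratio never below 1 whose direction is in another column, a p-value, an adjusted p-value, and a score equal to the −log10 of the p-value. Region positions and lengths are given as deposited. Of the starts, 43.0% lay 1 bp above a multiple of 20 and 3.15% on one, and 46.3% of ends lay on one. Starts counted from 1 would give this. The deposited member lengths equal end minus start, as with starts counted from 0, so the counting is not settled. The build is not GRCr8, and RefSeq GRCr8 gave only names, strand (4 of 5 members matched) and local gene order.

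The planned description of the authors' calls was made, with no test of its own. Implied means were 2-decimal pairs whose ratio, after adding 0.1 to both, equals the fold; the smaller mean was searched up to 40. The weights of the 2 vector libraries were those for which each implied mean had at least as many divisions of its reads as distinct p-values. The Mettl3 region was left out of this fit, and each region in it was taken to have reads in both vector libraries. The decoding was run first on simulated data. Python 3.11.15, numpy 2.4.6 and pandas 2.3.3 were used. The depth of the libraries is unknown, and implied counts cover counting error only. The members and lists were chosen with earlier results of these data known, and the decoding after the data were seen. Every member region, every listed gene of the m6A machinery list and the regions next to the threshold were named by rule; Slc16a14, Atad2 and RT1-M6-2 were named after their values were seen. No sequence of the regions is shown, since no genome of the files' build was used.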

Additional observations from a re-analysis of the deposited data

How the results depend on the processing

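Of the 6 passing member regions, 3 passed at an adjusted p under 0.01 (all in Mettl3), 9 were listed in all, 3 remained in number without folds of a single decimal, 5 without regions under 50 bp, and 6 with matching by gene ID as well. Only 1, in Rbm15b, had both edges on a 20 bp grid, a setting added after seeing the data. Of all 1967 listed regions, passing or not, 21.7% had both edges on it. Shares over all listed regions are not given for the other settings. The genes were chosen for their regions, so nothing is read from these counts. The m6A machinery list gave 7 passing regions, and 3, 11, 3 and 1 at an adjusted p under 0.01, with all regions, without single-decimal folds and on the grid; these settings hold fewer or more regions by construction. Directions were taken as deposited, and these settings could not turn them. Another setting added after seeing the data let a region have all its reads in 1 vector library. With it, 38 to 46 of the 46 reads in the smallest pair of the lower Mettl3 region lay in 1 library. It is given for that region only. No paired analysis was possible because only the authors' comparison was at hand; leaving out a replicate and another filter could not be run for the same reason, and positions within RefSeq transcripts were not used. With a constant of 1 in place of 0.1, a setting added after seeing the data, the folds were 24.3 (Mettl3, lower), 125 (Mettl3, 217 bp), 6.03 (Rbm15b), 6.04 (Ythdf2) and 4.01 (first Zc3h13 region), from the smallest pair of means. The smallest pairs outside Mettl3 hold few vector reads, and since larger pairs are possible the depth of these regions is not settled.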

Other observations

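Among lower regions with an implied 0, those with 4 implied vector reads had 3 distinct p-values and those with 10 reads had 6. With 6 reads, 104 regions divided 3 and 3 had a p of 0.00966, and the other 4 values ran from 0.011 to 0.0115. The listed Zc3h13 region with 6 reads had 0.0113, which it shared with 14 of the other regions of its fold. These values describe the deposited tables and carry no test.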
